A study of Rattus norvegicus with 6 samples.

Results

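Mitochondrial protein import genes are the genes of the machinery that brings nuclear-encoded proteins into mitochondria. They were taken as the protein-coding entries of the deposited gene table whose symbols begin with Timm or Tomm and a digit, together with Hspa9, Grpel1, Pmpca, Pmpcb, Pam16, Dnajc19, Samm50 and Chchd4. This gave 31 genes of the 34170 in the table. They were compared between retinas of 3 diabetic and 3 control rats. All were males of the outbred Sprague-Dawley stock, of about 100 g per the labels. Diabetic rats had received streptozotocin, a toxin of the pancreatic beta cells, by intraperitoneal injection over 5 days (dose 60 mg/kg, given fasted for 12 h). They counted as diabetic when fasting blood glucose exceeded 16.7 mmol/L 1 week later. Control rats, labelled WT, had received citrate buffer on the same schedule. The sources used here give neither the age of the rats nor when the retinas were collected. Retinal RNA was sequenced after poly-A selection, so the values are averages over all retinal cells, and fewer cells of a type cannot be told apart from less RNA per cell.

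Nearly all mitochondrial proteins are made in the cytosol. They pass the outer membrane through the TOM complex, whose receptors hand them to the Tomm40 pore. Proteins with a cleavable presequence then pass the inner membrane through the TIM23 channel, are pulled in by a motor built around the chaperone Hspa9, and are cut by the presequence peptidase. Metabolite carriers are led through the intermembrane space by small Tim chaperones to the TIM22 complex, outer membrane barrel proteins are inserted through Samm50, and Chchd4 forms disulfide bonds in small intermembrane space proteins. Photoreceptors, the most numerous cells of the rodent retina, pack mitochondria densely into their inner segments.

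Promoters of nuclear genes for mitochondrial proteins are known for sites of NRF1 and of the ETS factor GABP. The stretches shown are the 170 bases before the start site of 4 genes chosen for display and not by a rule. They come from RefSeq in build GRCr8, 5′ to 3′ on the strand of the gene. They are Tomm7 at chr4:12197333-12197502 on the plus strand, Tomm20 at chr19:71832421-71832590, Chchd4 at chr4:125534563-125534732 and Hspa9 at chr18:26828399-26828568, the last 3 on the minus strand. Capitals mark matches to the NRF1 motif (GCGC, any 2 bases, GCGC), the ETS motif CCGGAAG or the CARE motif TGATGNAA, a combined C/EBP and ATF element, each searched on both strands.
Tomm7: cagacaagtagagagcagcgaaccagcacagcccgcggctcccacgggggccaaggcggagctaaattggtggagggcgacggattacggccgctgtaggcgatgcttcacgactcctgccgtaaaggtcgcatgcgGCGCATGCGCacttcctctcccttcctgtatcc
Tomm20: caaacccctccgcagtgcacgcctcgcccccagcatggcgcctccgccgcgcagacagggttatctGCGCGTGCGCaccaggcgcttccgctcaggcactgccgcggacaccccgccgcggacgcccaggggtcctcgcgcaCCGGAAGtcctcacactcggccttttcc
Chchd4: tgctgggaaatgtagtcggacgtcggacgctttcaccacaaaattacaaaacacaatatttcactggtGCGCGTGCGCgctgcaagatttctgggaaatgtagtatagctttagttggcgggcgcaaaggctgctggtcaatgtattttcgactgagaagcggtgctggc
Hspa9: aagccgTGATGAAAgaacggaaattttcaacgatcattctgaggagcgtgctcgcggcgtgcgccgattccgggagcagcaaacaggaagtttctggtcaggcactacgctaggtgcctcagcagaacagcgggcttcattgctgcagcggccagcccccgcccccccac

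Over the whole RefSeq window of 300 bases, 250 before and 50 after the start, 29 members had a promoter in the table, and Timm29 and Tomm34 were not matched. The ETS motif was in 10 of these 29 promoters, or 34.5%, against 11.2% of 18999 promoters of protein-coding genes. The NRF1 motif was in 6, or 20.7%, against 7.96%, and 14 members held either, or 48.3%, against 17.7%. Members with a promoter and lower in diabetic retina at an unadjusted p under 0.05 (limma, below) were 14. Of these, 6 held either motif, 4 held NRF1, 3 held ETS and 0 held CARE. A YY1 motif, AANATGGCG, was in 4 members (13.8%, against 4%), and the CARE motif was in 3, Hspa9, Timm22 and Tomm40l (10.3%, against 3.33%). Tomm6 and Timm13, the members of smallest p below, held no match to any of these motifs, and their stretches are not shown. No match overlapped a match of another of these motifs in the stretches shown, and a further NRF1 match of Chchd4 lies 191 bases before the start, outside its stretch. A match is a description of letters and not a binding site.

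Import genes were mostly lower in diabetic retina by small amounts. FPKM, the unit of the table, are fragments counted in a gene scaled by its length and by a size of the library. That size was 0.974 to 1.04 times the total of rebuilt fragments, so it was not that total itself. Members averaging 0.5 FPKM or more were tested, which 29 did, and 26 of them had a negative log2 difference (diabetic minus control), as 49.9% of all genes did. The median difference of the 29 was -0.25, against 0.00 for the 16363 genes tested. Scaling each library again by its median ratio to the mean of each gene left these medians at -0.25 and 0.00. A median near 0 and a share near 49.9% over all genes thus come with the scale of the table. With voom on the rebuilt totals, the medians were -0.23 for the members and 0.05 for all genes. Differences are of log2(FPKM + 0.5), so those of low genes are understated. The chaperone gene Hspa9 went the other way, with a log2 difference of 0.23. With limma, 0 members passed a Benjamini-Hochberg adjusted p of 0.05, where 0 of all genes (0%) passed, so none of the differences below passed the threshold. With limma-voom on fragments rebuilt from the FPKM, 0 members and 2 of all genes passed.

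At an unadjusted p under 0.05, 15 of the 29 tested members were lower and 1 was higher in diabetic retina. Over all genes tested the shares were 10.7% lower and 9.15% higher (19.9% in either direction). The 3 diabetic libraries lay below the 3 control libraries in 14 members, where 13.6% of all genes did so, and above them in Hspa9 alone, where 12.7% did so. The count of 15 was 9 without control 2 and 18 without control 3, and the share of all genes lower at that p moved with it, to 7% and 13%. On the TPM scale, which moves the median of all genes to 0.13, it was 6 lower and 1 higher, where all genes gave 4.23% lower and 18.4% higher. The median of the members was -0.13 there, and 25 of 29 lay below the median of all genes.

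**Figure D1:**
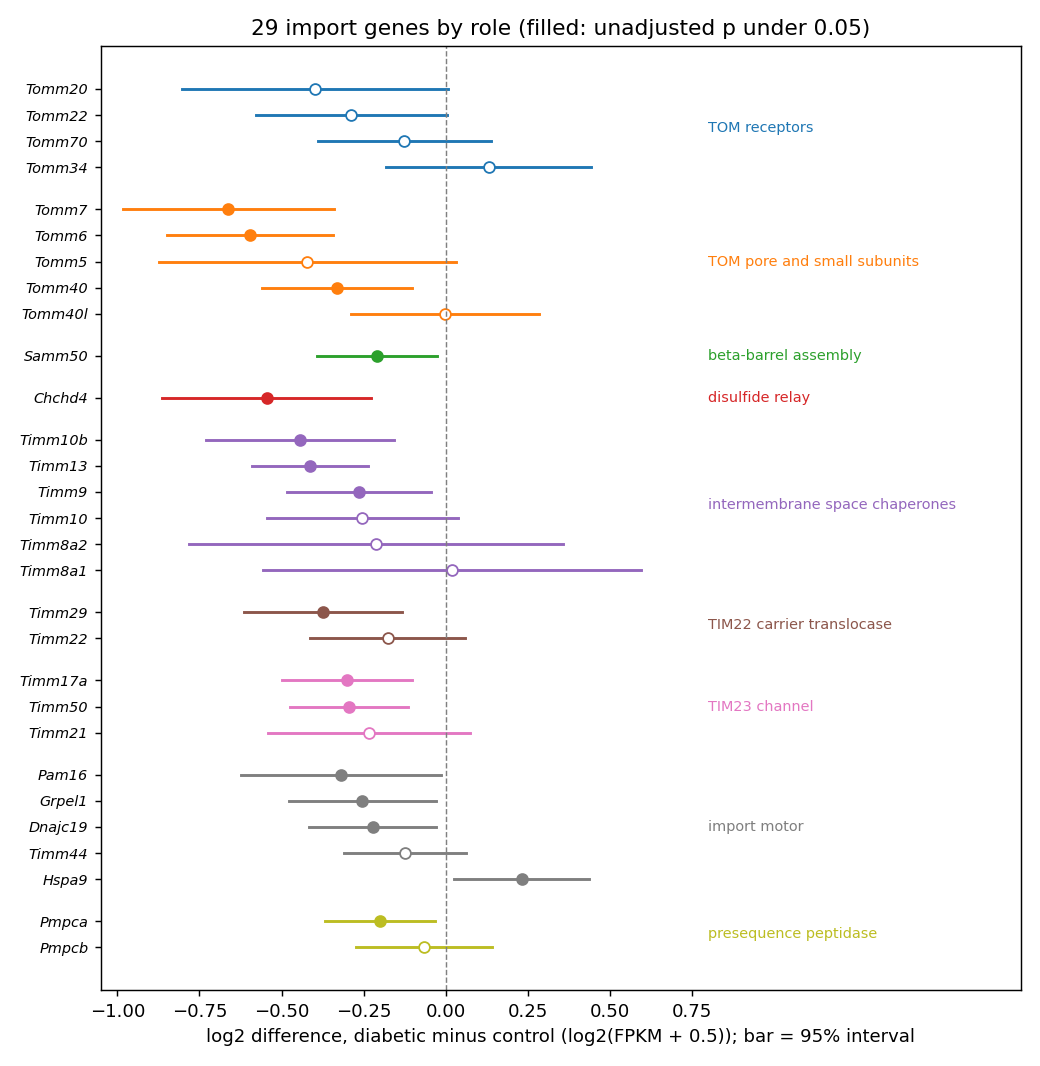
Log2 differences, diabetic minus control, of the 29 import genes tested, grouped by role; points are limma estimates, bars their 95% intervals, and filled points have an unadjusted p under 0.05. 26 points lie left of 0, and Hspa9 in the import motor is the filled point to the right.

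The members did not split evenly by library. Against the control mean, the median over the 29 members was -0.24, -0.35 and -0.26 in diabetic 1, 2 and 3 and 0.01, 0.15 and -0.11 in control 1, 2 and 3. Diabetic 2 was lowest and control 2 highest, and the groups did not overlap in this median. In control 3, 22 of the 29 members lay below the control mean, in control 2 only 3 did. The median over all genes was between -0.01 and 0.01 in each library, where the scale of the table holds it.

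**Figure D2:**
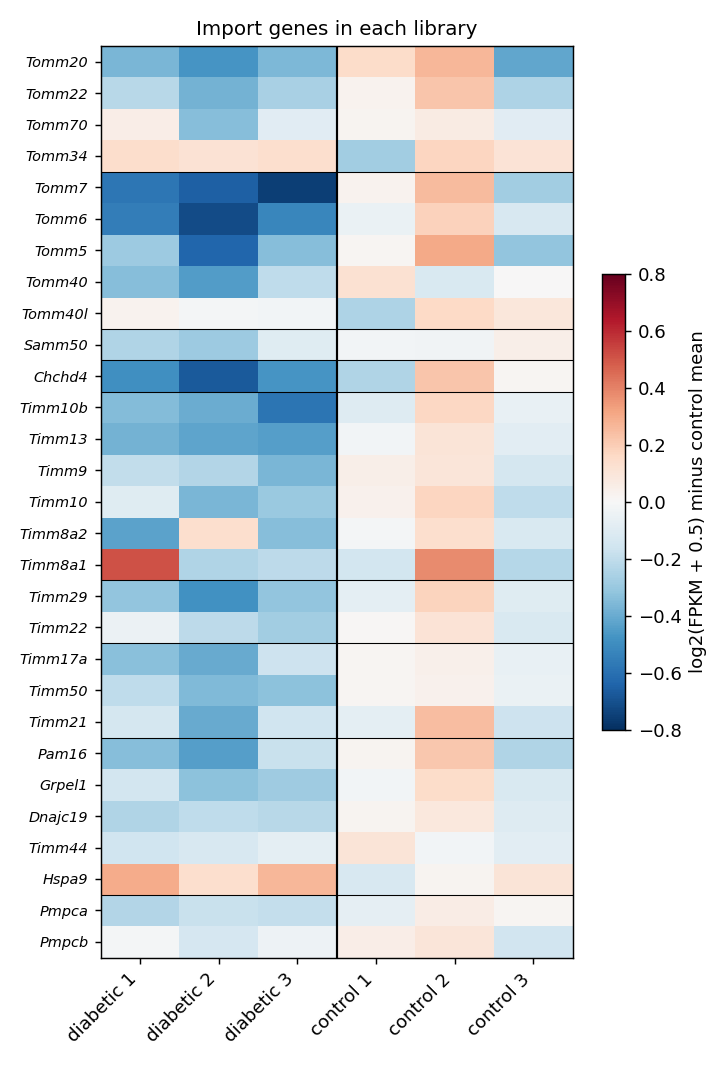
Log2(FPKM + 0.5) of each import gene minus its control mean, in the 3 diabetic libraries (left) and the 3 control libraries (right); black lines divide the role groups used in the text. Blue prevails in diabetic 1 to 3, control 3 is blue in 22 genes, and Hspa9 is red in the 3 diabetic libraries.

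The 2 members with the largest differences were small subunits of the TOM complex, Tomm7 and Tomm6. Tomm7, a small subunit that modulates TOM assembly and in human cells helps hold the kinase PINK1 at the outer membrane, was at 82.6, 78.0 and 72.9 FPKM in diabetic 1, 2 and 3, against 126, 147 and 101 FPKM in control 1, 2 and 3. Its groups did not overlap, and its log2 difference of -0.66 (SE 0.14, adjusted p = 0.128, limma) had the largest size among the members. Tomm6, another small subunit that stabilises the complex, was at 246, 219.6 and 251 FPKM in the diabetic libraries, against 348, 409 and 330.1 FPKM in the control libraries. The means were 239 ± 17.0 FPKM in diabetic and 363 ± 41.6 FPKM in control retina (SD, n = 3 each), which differed on the log2 scale by -0.60 (SE 0.11, adjusted p = 0.127, limma). The listed length of Tomm6 is 225 nt, shorter than the fragments of 250 to 300 bp selected for the libraries, so its level per length is not comparable with that of other members. In the deposited table, whose genome build the sources used here do not name, Tomm7 spans bases 7835949 to 7842789 of chromosome 4 and Tomm6 spans bases 15313523 to 15314435 of chromosome 9, both plus strand.

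Tomm40, the pore itself, was at 38.0, 35.3 and 41.8 FPKM in diabetic and at 52.6, 44.2 and 48.3 FPKM in control libraries, with no overlap (log2 difference -0.33, 95% interval -0.56 to -0.10). Its paralogue Tomm40l ranged from 12.9 to 13.4 FPKM in diabetic and from 10.9 to 14.7 FPKM in control libraries, with a difference of 0.00 and an interval from -0.29 to 0.28. The log2 ratio of Tomm40l to Tomm40 was -1.47, -1.41 and -1.66 in diabetic 1, 2 and 3, against -2.22, -1.56 and -1.76 in control 1, 2 and 3, so the groups overlapped. Tomm5, the remaining small subunit, ranged from 2.73 to 3.61 FPKM in diabetic and from 3.53 to 5.68 FPKM in control libraries (log2 difference -0.42, SE 0.19, and -0.27 without control 2). Tomm5 is listed with a length equal to its whole span of 3157 nt and lies within Fbxo10 on the same strand (mean 5.62 FPKM), so its reads and its level per length are uncertain.

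The 3 TOM receptors had negative differences, 0 of them at an unadjusted p under 0.05, and their groups overlapped. Tomm20, the receptor for presequences and the member with the second highest FPKM, was at 130.1, 120.5 and 131 FPKM in diabetic libraries, against 186, 201 and 126 FPKM in control libraries. Control 3 lay among the diabetic libraries, and the log2 difference of -0.40 had a 95% interval from -0.80 to 0.01. It was -0.61 without control 3 and -0.27 without control 2. Tomm22, the central receptor that bridges Tomm20 and the pore, was at 80.5, 72.2 and 78.6 FPKM in diabetic and 95.8, 109.6 and 79.3 FPKM in control libraries, where control 3 again lay among the diabetic libraries (log2 difference -0.29, and -0.18 without control 2 or -0.41 without control 3). Tomm70, which receives carrier precursors with their cytosolic chaperones, was at 52.9, 40.1 and 47.7 FPKM in diabetic and 51.7, 53.2 and 47.8 FPKM in control libraries. Its log2 difference of -0.13 rested on diabetic 2, without which it was -0.02, and it was -0.22 without diabetic 1. A pseudogene described as similar to Tomm70 was at 15.3 ± 1.44 FPKM in diabetic and 17.6 ± 2.78 FPKM in control retina, and such copies can share reads. Tomm34, a cytosolic cochaperone of import plotted with the receptors, was at 10.7, 10.5 and 10.7 FPKM in diabetic and 7.90, 10.9 and 10.5 FPKM in control libraries, with a log2 difference of 0.13 that was -0.01 without control 1.

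**Figure D3:**
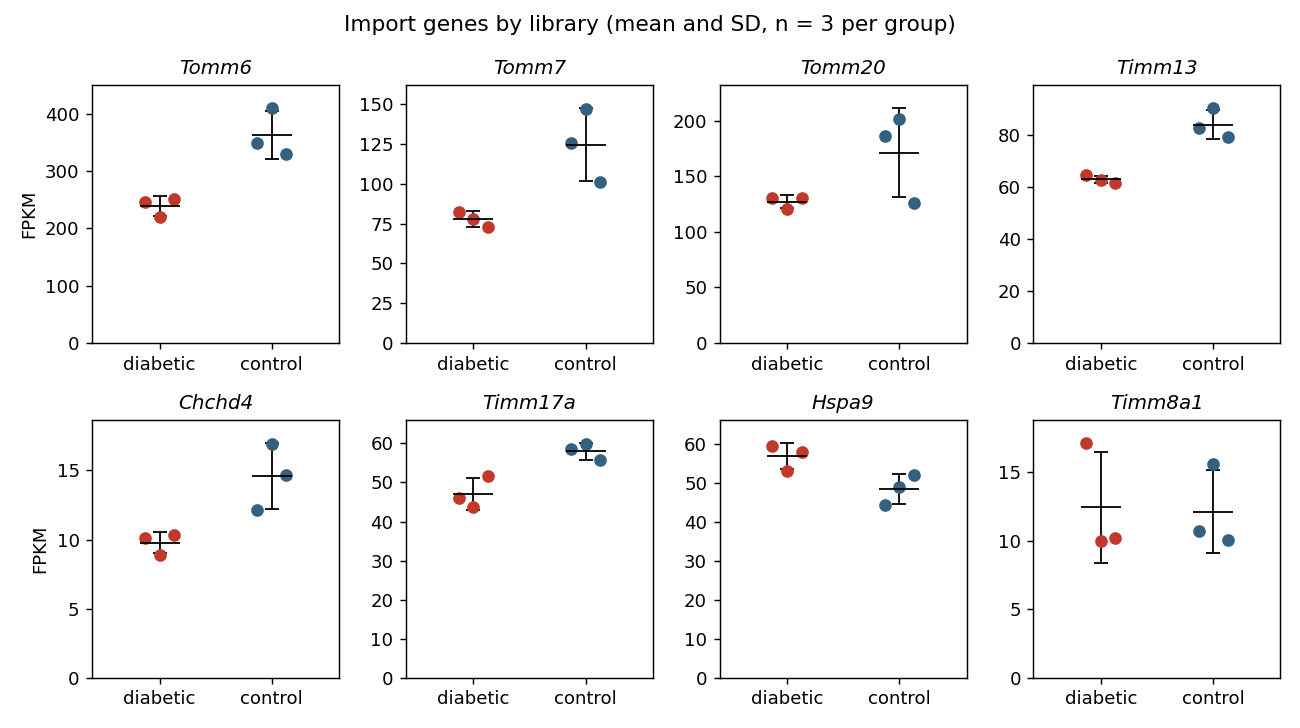
FPKM of 8 import genes in each library; points are libraries, the horizontal mark is the mean and the bar the SD (n = 3 per group), and each axis starts at 0. Tomm6, Tomm7, Timm13, Chchd4 and Timm17a lie apart and lower in diabetic retina, Hspa9 lies apart and higher, and Tomm20 and Timm8a1 overlap.

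The disulfide relay gene and several of its substrates were lower. Chchd4, the oxidoreductase that traps small cysteine-rich proteins in the intermembrane space, was at 10.1, 8.89 and 10.3 FPKM in diabetic libraries, against 12.2, 16.9 and 14.6 FPKM in control libraries. All 3 diabetic libraries lay below the controls, with a log2 difference of -0.54 (SE 0.14, adjusted p = 0.138, limma). Among its known substrates, the small Tim chaperones, 5 of 6 tested were lower and 3 had an unadjusted p under 0.05, against 49.9% negative and 10.7% lower at that p among all genes. The 5 include Timm8a2, which was too low to tell a difference. Timm13, which forms a chaperone ring with Timm8 proteins, was at 64.4, 62.4 and 61.6 FPKM in diabetic libraries and 82.5, 90.1 and 79.0 FPKM in control libraries. The groups were far apart for their spread, with means of 62.8 ± 1.45 FPKM in diabetic and 83.8 ± 5.69 FPKM in control retina (SD, n = 3 each), apart on the log2 scale by -0.41 (SE 0.07, adjusted p = 0.127, limma). Timm13 spans bases 11677340 to 11678442 of chromosome 7 (plus strand), and Chchd4 spans bases 123108925 to 123118186 of chromosome 4 (minus strand).

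Timm9 and Timm10 form the ring that escorts carriers. Timm9 was at 25.9, 25.2 and 22.9 FPKM in diabetic and 30.7, 31.7 and 26.9 FPKM in control libraries, without overlap (log2 difference -0.26). Timm10 was at 17.5, 14.4 and 15.1 FPKM in diabetic and 19.1, 21.1 and 16.2 FPKM in control libraries, and its groups overlapped (log2 difference -0.25). Timm10b, the member of this family that sits at the TIM22 complex, was at 6.60, 6.35 and 5.54 FPKM in diabetic and 7.89, 9.64 and 8.16 FPKM in control libraries (log2 difference -0.44). Timm10b overlaps Dnhd1 on the same strand (mean 3.27 FPKM), and such genes can share reads.

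The Timm8 genes showed no common direction. In human, loss of TIMM8A causes deafness and dystonia with optic nerve degeneration. Its rat counterpart Timm8a1 was at 17.1, 10.01 and 10.2 FPKM in diabetic 1, 2 and 3 and 10.7, 15.6 and 10.1 FPKM in control 1, 2 and 3, a log2 difference of 0.02 that was -0.23 without diabetic 1. It was high in diabetic 1 and control 2. The summed level of 4 genes marking cornea and conjunctiva (Krt12, Krt5, Krt14 and Aldh3a1) was also highest in these 2 libraries, at 13.6 FPKM in diabetic 1 and 10.9 FPKM in control 2, against 1.12 to 4.15 FPKM in the others. What part this has in the Timm8a1 values was not tested. Timm8a2 ranged from 0.491 to 0.966 FPKM in diabetic and from 0.729 to 0.966 FPKM in control libraries, too low to tell a difference. Timm8b was at 3, 0 and 1 fragments in diabetic and 3, 4 and 0 fragments in control libraries, and its low level kept it out of the test. Timm8b overlaps Nkapd1 on the opposite strand over 532 nt (mean 16.3 FPKM). The kit does not mark strand and the counter is not named, so the level of Timm8b is uncertain.

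The TIM22 complex inserts carriers into the inner membrane. Its core Timm22 was at 20.4, 18.2 and 17.3 FPKM in diabetic and 21.2, 22.8 and 19.3 FPKM in control libraries, which overlapped (log2 difference -0.18). Timm29, a TIM22 subunit known from human cells, was at 31.2, 27.7 and 31.2 FPKM in diabetic and 36.8, 44.3 and 36.3 FPKM in control libraries, which did not (log2 difference -0.37, SE 0.10, adjusted p = 0.146, limma).

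In the TIM23 channel, the 3 members tested were lower. Timm17a, a short-lived channel subunit that human cells degrade under stress, was at 45.9, 43.8 and 51.6 FPKM in diabetic libraries, against 58.6, 59.7 and 55.7 FPKM in control libraries. Its log2 difference was -0.30 (SE 0.08, adjusted p = 0.151, limma), with no overlap. Timm50, the presequence receptor of the channel, was at 25.9, 23.3 and 23.7 FPKM in diabetic and 30.2, 30.7 and 28.8 FPKM in control libraries, again without overlap (log2 difference -0.29). Timm21, which links the channel to the TOM complex, ranged from 18.8 to 22.6 FPKM in diabetic and from 22.2 to 29.7 FPKM in control libraries, which overlapped (log2 difference -0.23, and -0.11 without control 2). The paralogue Timm17b was at 0, 2 and 5 fragments in diabetic and 3, 1 and 3 fragments in control libraries and was not tested. An entry described as Tim17-B-like, with the same listed length of 519 nt, is listed at 0 in all 6 libraries, so the level of this paralogue is uncertain. The channel subunit Timm23 is not among the members, and an entry described as Tim23-like, LOC100362432, was at 45.7, 38.3 and 43.7 FPKM in diabetic and 52.2, 55.3 and 48.6 FPKM in control libraries (log2 difference -0.29, SE 0.09).

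The motor held the one member that was higher at an unadjusted p under 0.05. Hspa9, the mitochondrial Hsp70 that drives matrix import and also folds imported proteins, was at 59.5, 53.1 and 58.1 FPKM in diabetic libraries, against 44.3, 49.1 and 52.0 FPKM in control libraries. The groups did not overlap, but the gap between diabetic 2 and control 3 was narrow, and the log2 difference was 0.23 (95% interval 0.03 to 0.44, adjusted p = 0.214, limma). Leaving out 1 library gave differences from 0.17 to 0.28, with an unadjusted p above 0.05 without diabetic 1 (0.0963), diabetic 3 (0.0883), control 1 (0.107) or control 2 (0.0598). Hspa9 was higher in each of 20 alternatives run, with differences up to 0.37 on the TPM scale. It spans bases 27731072 to 27749235 of chromosome 18 (minus strand).

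The other members of the motor had negative differences, and of these Grpel1, Dnajc19 and Pam16 had an unadjusted p under 0.05. Grpel1, its nucleotide exchange factor, ranged from 39.0 to 44.3 FPKM in diabetic and from 45.1 to 54.6 FPKM in control libraries (log2 difference -0.25). The log2 ratio of Hspa9 to Grpel1 was 0.42, 0.44 and 0.52 in diabetic 1, 2 and 3. It was -0.13, -0.15 and 0.20 in control 1, 2 and 3, without overlap. This ratio was picked with the values seen, and it restates the differences of both genes. Dnajc19, a J protein of the motor whose loss in human causes cardiomyopathy with ataxia, was at 15.9, 16.3 and 16.1 FPKM in diabetic and 19.1, 20.03 and 17.5 FPKM in control libraries (log2 difference -0.22). Over 18884 nt Dnajc19 overlaps Fxr1 on the opposite strand (mean 35.9 FPKM), and without strand the reads of both can mix. Pam16, the J-like partner of the motor, was at 49.2, 45.8 and 54.95 FPKM in diabetic and 63.3, 72.6 and 52.8 FPKM in control libraries, where diabetic 3 lay above control 3 (log2 difference -0.32, and -0.21 without control 2). Timm44, which anchors Hspa9 at the channel, was at 29.3, 29.9 and 30.99 FPKM in diabetic and 35.3, 32.3 and 30.9 FPKM in control libraries, with a log2 difference of -0.12 that was 0.01 on the TPM scale and -0.07 without control 1.

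The presequence peptidase genes Pmpca and Pmpcb and the barrel assembly gene Samm50 had small negative differences, those of Pmpca and Samm50 at an unadjusted p under 0.05. Pmpca was at 29.1, 30.4 and 30.1 FPKM in diabetic and 32.7, 35.9 and 34.8 FPKM in control libraries, a small gap without overlap (log2 difference -0.20). Pmpca overlaps Entr1 on the opposite strand (mean 33.7 FPKM). Its catalytic partner Pmpcb was at 61.0, 56.2 and 60.0 FPKM in diabetic and 64.3, 66.1 and 55.6 FPKM in control libraries, with a log2 difference of -0.07 (95% interval -0.27 to 0.14) that was 0.07 on the TPM scale. Samm50 was at 45.2, 43.7 and 50.1 FPKM in diabetic and 52.8, 52.5 and 55.5 FPKM in control libraries, again without overlap (log2 difference -0.21).

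The differences were also read against gene length and level, since both move with them in this table. All genes tested were put into 10 classes of near equal size by length. In the class of 954 to 1378 nt, which holds the most members, the median log2 difference over all genes was -0.12, and that of the 9 members was -0.29. In the class of longest genes the median was 0.17. Of the 29 members, 24 lay below the median of all genes in their own length class (median distance -0.15), and 25 lay below that of their own class among 10 of level (median distance -0.19). In the class of highest level, above 51.9 FPKM, 34.5% of all genes were lower at an unadjusted p under 0.05, and 9 members belong to it. With the length trend of each library removed, 9 members were lower at an unadjusted p under 0.05, where 9.20% of all genes were, and the median of the members was -0.16. The part of length and level together was not tested.

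**Figure D4:**
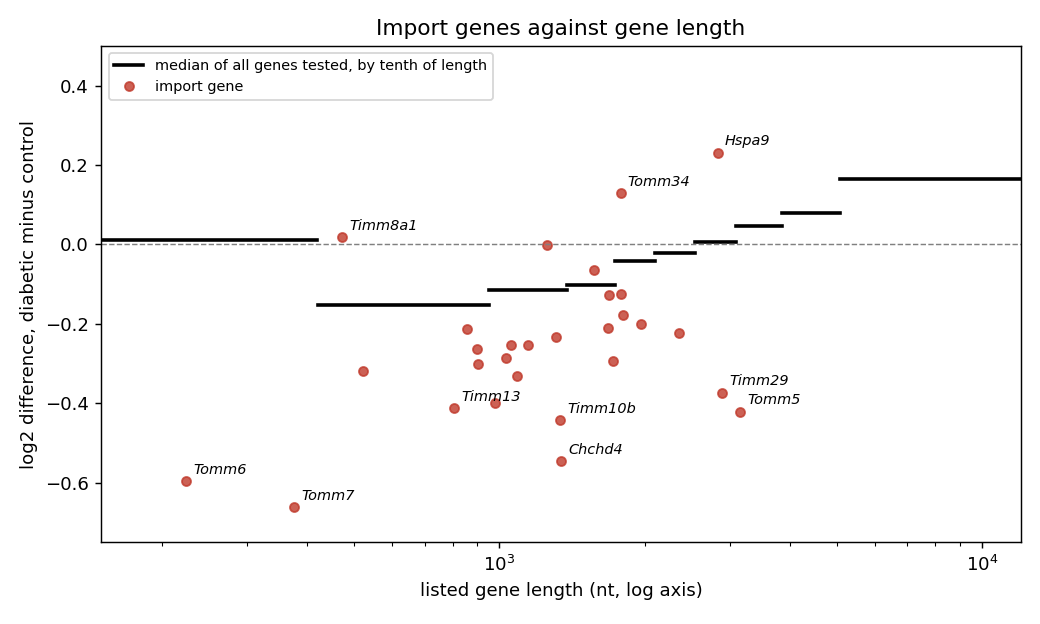
Log2 difference, diabetic minus control, of each import gene (points) against listed gene length on a log axis, with the median of all genes tested in each of 10 length classes (bars, cut at the edges of the plot). Below the bar of their class lie 24 of 29 points; Tomm6 and Tomm7 lie in the class of shortest genes, where the median was 0.01.

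Other genes around the import pathway, from lists that are no members, were compared at the same threshold. Among 20 further import genes tested, 13 were lower, 2 of them at an unadjusted p under 0.05, and 0 were higher at that p. Lower at that p were thus 2 of 20, near the 10.7% of all genes. The 2 were Aifm1, the partner that brings Chchd4 into place (30.7 ± 0.398 FPKM in diabetic and 38.2 ± 4.003 FPKM in control retina), and Dnlz, which keeps Hspa9 soluble (18.3 ± 0.915 FPKM in diabetic and 22.8 ± 1.52 FPKM in control retina). Grpel2, the paralogue of Grpel1, was at 27.7 ± 3.04 FPKM in diabetic and 27.4 ± 2.85 FPKM in control retina (log2 difference 0.02). In the MICOS complex, which shapes the cristae, 7 of 8 were lower and Micos10 (-0.38) and Micos13 (-0.49) were so at an unadjusted p under 0.05, beside 49.9% negative and 10.7% lower at that p over all genes. Micos10 belongs to the class of highest level, where 34.5% of all genes were lower at that p. Micos13 belongs to the class of 29.2 to 51.8 FPKM, where 19.6% were. The median log2 differences of the further import genes and of MICOS were -0.09 and -0.20.

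Genes that fold or degrade imported proteins were lower in 13 of 14 cases, 5 at an unadjusted p under 0.05, where over all genes 49.9% had a negative difference and 10.7% were lower at that p. Hspe1, the small partner of the chaperonin and like Tomm6 a short gene, was at 106, 111 and 114 FPKM in diabetic and 158, 189 and 145 FPKM in control libraries, and the protease gene Clpp was at 30.1, 29.8 and 31.7 FPKM in diabetic and 37.0, 38.3 and 37.8 FPKM in control libraries. Htra2, Phb and Phb2 had log2 differences between -0.30 and -0.24. Hspe1 and Phb2 belong to the class of highest level, where 34.5% of all genes were lower at that p. Clpp and Phb belong to the class of 29.2 to 51.8 FPKM, where 19.6% were. Htra2 belongs to the class of 19.3 to 29.2 FPKM, where 14.5% were. Hspd1, the chaperonin itself, was at 60.7 ± 3.34 FPKM in diabetic and 68.9 ± 5.78 FPKM in control retina (log2 difference -0.18, SE 0.09). The log2 ratio of Hspa9 to Hspd1 was -0.11, -0.11 and -0.06 in diabetic 1, 2 and 3. It was -0.74, -0.50 and -0.27 in control 1, 2 and 3, without overlap. This ratio too was picked with the values seen, and it restates the differences of both genes.

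Among cytosolic helpers of import, 11 of 12 were lower and 5 were so at an unadjusted p under 0.05, namely Hspa8 (-0.40), Btf3 (-0.27), Naca (-0.29), Dnaja1 (-0.32) and Stip1 (-0.19). Over all genes 49.9% had a negative difference and 10.7% were lower at that p. In the class of highest level 34.5% were lower at that p, and the median log2 difference was -0.16. Hspa8, Btf3, Dnaja1 and Stip1 belong to that class. Of the outer membrane channels, which Samm50 inserts, Vdac2 (-0.19) and Vdac3 (-0.30) were lower at an unadjusted p under 0.05 and Vdac1 had 0.02. These channel genes also belong to the class of highest level. Regulators of nuclear mitochondrial genes had a median of 0.01. The coactivator Ppargc1a was at 14.8, 15.6 and 15.2 FPKM in diabetic libraries, against 7.48, 9.49 and 12.1 FPKM in control libraries (log2 difference 0.65, SE 0.16, adjusted p = 0.139, limma). Ppargc1b had 0.41 and Esrra -0.19, both at an unadjusted p under 0.05, while Nrf1 (0.14) and Gabpa (0.14) were not. Of 5 genes of import surveillance tested, 4 were lower, 0 of them at an unadjusted p under 0.05, and 1 was higher at that p. Over all genes 49.9% had a negative difference and 9.15% were higher at that p. The higher gene was Atf5, a transcription factor of the mitochondrial stress response. It was at 36.3, 45.9 and 52.4 FPKM in diabetic and 27.2, 26.3 and 24.2 FPKM in control libraries. Its log2 difference of 0.77 (SE 0.14, adjusted p = 0.127, limma) did not pass over all genes. Pink1 and Dele1, counted as lower, each had -0.04.

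The libraries held between 12417686 and 19115426 rebuilt fragments, 16277864 to 19115426 in diabetic and 12417686 to 16941864 in control libraries. The summed level of 11 retina markers, of which 0 were at 0, was 25260 to 29080 FPKM in diabetic and 29513 to 32854 FPKM in control libraries, with 8 of 11 lower, and its part in the import values was not tested. The 12 lens markers summed to 28.4, 68.9 and 48.1 FPKM in diabetic 1, 2 and 3. They summed to 37.5, 65.1 and 437 FPKM in control 1, 2 and 3. The highest sum was in control 3, while control 1 and control 2 lay within the diabetic range. All 12 lens markers had a negative log2 difference, 2 of them at an unadjusted p under 0.05 (limma), where 10.7% of all genes were lower. What part control 3 has in this direction was not tested. The 8 markers of the pigment epithelium summed to 41.6 to 95.7 FPKM in diabetic and 47.6 to 97.3 FPKM in control libraries. Of 7 tested, 5 were lower and 2 higher, and 3 had an unadjusted p under 0.05 (limma). Over all genes 49.9% had a negative difference, and 19.9% had an unadjusted p under 0.05. Markers of skeletal muscle summed to at most 8.01 FPKM in diabetic and 6.18 FPKM in control libraries, and markers of blood to 40.9 to 54.4 FPKM in diabetic and 41.5 to 52.9 FPKM in control libraries. The labelled weights were 100.4 to 104 g in diabetic and 103.4 to 110.5 g in control rats.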

How the data were processed

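Poly-A RNA of 6 retina samples was sequenced as paired reads. The submitters' processing notes name HISAT2 2.0.5 as aligner. The sources used here name no counter, genome build or annotation, and the named kit does not mark strand. The authors deposited 1 table of FPKM with gene lengths, coordinates and biotypes, per the file headers. Each FPKM times its gene length and a constant per library gave whole fragments (100% of values within 0.05). Floors and fragments cover counting error only.

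The test was limma 3.58.1 (R 4.3.3) on log2(FPKM + 0.5), over genes averaging 0.5 FPKM or more (group as the only term, eBayes with intensity trend, two-sided, Benjamini-Hochberg over all 16363 genes tested, threshold 0.05). Each library is labelled with its own animal weight, and p-values measure the spread between these animals. The variance of each gene is drawn toward that of genes of similar level. Without that trend, 11 members were lower at an unadjusted p under 0.05 (limma), where 8.92% of all genes were. No pair of libraries agreed within sampling noise, the closest having a chi-square of 10.7 times its degrees of freedom. Members, lists and tests were chosen with earlier results of these data known. Values per library were given by a rule: the 12 members of smallest p, the smallest p per role, up to 3 highest differences, members varying over 8-fold within a group, and a fixed set of subunits. In the pathway lists, genes at an unadjusted p under 0.05 were named. Other list genes and the ratios were picked once their values had been seen. Among ratios computed and not shown, Hspa9 to Timm44 did not overlap between groups. Those of Timm10b to Timm10, Pmpcb to Pmpca and Tomm34 to Tomm20 did. The functions were tested on simulated data. Figures were drawn with matplotlib 3.10.9. Protein sequences and the m6A part of the study were not analysed here.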

Additional observations from a re-analysis of the deposited data

How the results depend on the processing

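Under 20 alternatives, 14 settings and 6 fits that each left out 1 library, 0 import genes passed an adjusted p of 0.05, while all genes gave 2 with voom and 0 to 4 over the fits without 1 library (4 without diabetic 1). Of the members, 21 were lower in the fit as reported and in each alternative, and 6 (Tomm6, Tomm7, Timm13, Chchd4, Timm29 and Timm10b) also had an unadjusted p under 0.05. The count of members lower at that p, 15, was 6 with TPM, 9 with voom and 9 with the length trend removed, and 9 to 18 over the fits without 1 library. The share of all genes lower at that p was 4.23%, 7.35%, 9.20% and 7% to 13% in these fits, against 10.7% as reported. The count of members higher, 1 (Hspa9), was 0 without the intensity trend and 0 with the replicate block, and 0 to 1 over the fits without 1 library. On the TPM scale the median, -0.25 as reported, was -0.13 (all genes 0.13). TPM divides each library by its sum of FPKM, which raised the differences by similar amounts. Hspa9 went from 0.23 to 0.37 and Samm50 from -0.21 to -0.07. Why the values moved in the other fits was not tested. 7 members of small difference changed sign. Pmpcb was 0.071 with TPM, 0.038 after quantile normalization and 0.013 after removal of the length trend, Tomm70 was 0.010 and Timm44 0.012 with TPM, and Tomm40l was 0.13 with TPM, 0.063 with voom and 0.10 with the length trend removed. Timm8a1 was -8.46e-04 with quantile normalization and -0.037 after thinning, and Timm8a2 was 0.063 after thinning. When 1 library was left out, Timm8a1 ranged from -0.23 to 0.21, Tomm40l from -0.13 to 0.078 and Tomm34 from -0.0080 to 0.22. The replicate numbers share no stated source. Same-numbered libraries had correlations of deviations of -0.05, -0.08 and 0.00, and no library correlated best with its own number. With the replicate block 12 members were lower at an unadjusted p under 0.05. With 3 fragments in a gene of 1 kb worth 0.158 to 0.248 FPKM, Timm8b, Timm17b and Timm8a2 were too low for a difference to be detectable at this depth.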
